A study of Drosophila melanogaster with 16 samples.

Results

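Genes of the cell cycle and of DNA replication were followed in OSS cells, a Drosophila melanogaster line that the labels describe as an ovarian follicle cell culture. The members are 38 genes listed by name, of which 37 had a row in the deposited tables, among 13892 genes with a coding sequence (CDS). No row has the symbol fzr, a Cdh1-type activator of the anaphase-promoting complex, and rows under other symbols of that gene were not used here. Each gene is represented by its transcript model with the longest CDS. The members fall into 5 groups by role: 13 for licensing of replication origins, 3 for DNA synthesis, 6 for regulation of the G1 to S step, 7 for mitotic entry and exit, and 8 for chromosome segregation.

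The cells were electroporated with 500 pmol of siRNA per 10 cm plate and cultured for 6 days. The siRNA was against GFP (siGFP, the negative control), against piwi (siPIWI), against PAF1 (siPAF1), or against PIWI and PAF1 together (double), so every library, controls included, comes from electroporated cells of 1 line. RNA was taken from cytoplasm lysates (cyto) or from what the labels call NUN pellets, an abbreviation that they do not spell out. Each of the 8 groups of siRNA and fraction has 2 libraries, numbered OSS_146 and OSS_147, for 16 libraries in all. The labels do not say whether the numbers mark separate cultures, so p-values measure the spread between these libraries, which may be technical. In a culture sequenced in bulk, fewer cells of a type and less RNA per cell cannot be told apart.

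Before a cell copies its DNA, the origin recognition complex and the loader Cdt1 place the MCM helicase on replication origins, and geminin blocks a second loading. Cyclins with their kinases then drive the cell through S phase and mitosis, and Polo and Aurora kinases, condensin, the spindle checkpoint and separase with its securin carry out the division. Many of these genes are targets of E2F factors and are transcribed together in dividing cells. Paf1 is a subunit of a complex that travels with RNA polymerase II during elongation, and Piwi is a nuclear protein that silences transposons in ovarian somatic cells with small guide RNAs.

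Sense-strand counts on coding sequences summed to between 2080794 and 4623806 per NUN library and to between 663876 and 1759084 per cyto library, so that NUN values are the more precise. The siRNA target atms, the fly gene for Paf1, lay between 58.3 and 82.5 CPM (counts scaled to a common library size) in the 4 NUN libraries without Paf1 siRNA and between 18.3 and 34.0 CPM in the 4 with it, a log2 difference of -1.57 ± 0.23 (SE; edgeR adjusted p = 0.0511). In cyto atms fell by 3.73 ± 0.34 on the log2 scale (edgeR adjusted p = 8.83e-07), and piwi fell by 2.13 ± 0.35 with Piwi siRNA (edgeR adjusted p = 0.0232). In NUN, piwi was at -0.50 ± 0.17 with Piwi siRNA (edgeR adjusted p = 1). Of the 8 markers of ovarian somatic cells, tj, CadN and ptc lay at 964 CPM or more in every NUN library, and bnb was at 0 in 7 of the 8. In NUN piwi lay at 591 to 1370 CPM, zfh1 at 550 to 887, fs(1)Yb at 122 to 236 and Fas3 at 58 to 93.2 CPM. In cyto tj lay at 65.5 to 253 CPM, CadN at 17.6 to 132, ptc at 20.4 to 99.9 and Fas3 at 1.36 to 15.5 CPM. Of the 5 muscle markers, sls lay at 2910 to 3830 CPM in NUN and Mlc2 at 409 to 1370 CPM in cyto. Mhc and up lay at 15.5 CPM or less in every library. Of the 7 germline markers, vas, nos and osk lay at 2.50 CPM or less in every library, while spn-E, a piRNA pathway helicase gene, lay at 315 to 656 CPM in NUN and 40.0 to 107 CPM in cyto. The summed level of the 7 in NUN was 326 to 516 CPM without Paf1 siRNA and 399 to 661 CPM with it, most of it spn-E, and its part in the results was not tested.

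In NUN, the estimated effect of Paf1 siRNA lay below 0 for all 13 licensing genes, but no single member passed the test across all genes. The average effect of Paf1 siRNA sets the 4 siPAF1 and double libraries against the 4 siGFP and siPIWI libraries. By edgeR's quasi-likelihood test at an adjusted p under 0.05, 6 of 8232 genes were called (0.0729%), 5 higher and 1 lower, and 0 of the 37 members. The estimate lay below 0 for 34 of the 37 members, against 50.9% of all genes tested. The members' median log2 fold change was -0.29, against -0.01 over all genes. At an unadjusted p under 0.05, 12 members were lower and 0 higher, against 7.79% and 5.44% of all genes. DESeq2's Wald test called 92 genes and 0 members. Without the filter on low counts edgeR called 344 genes (2.78%), among them CycB3, Mcm2 and Mcm3, each lower.

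**Figure D1:**
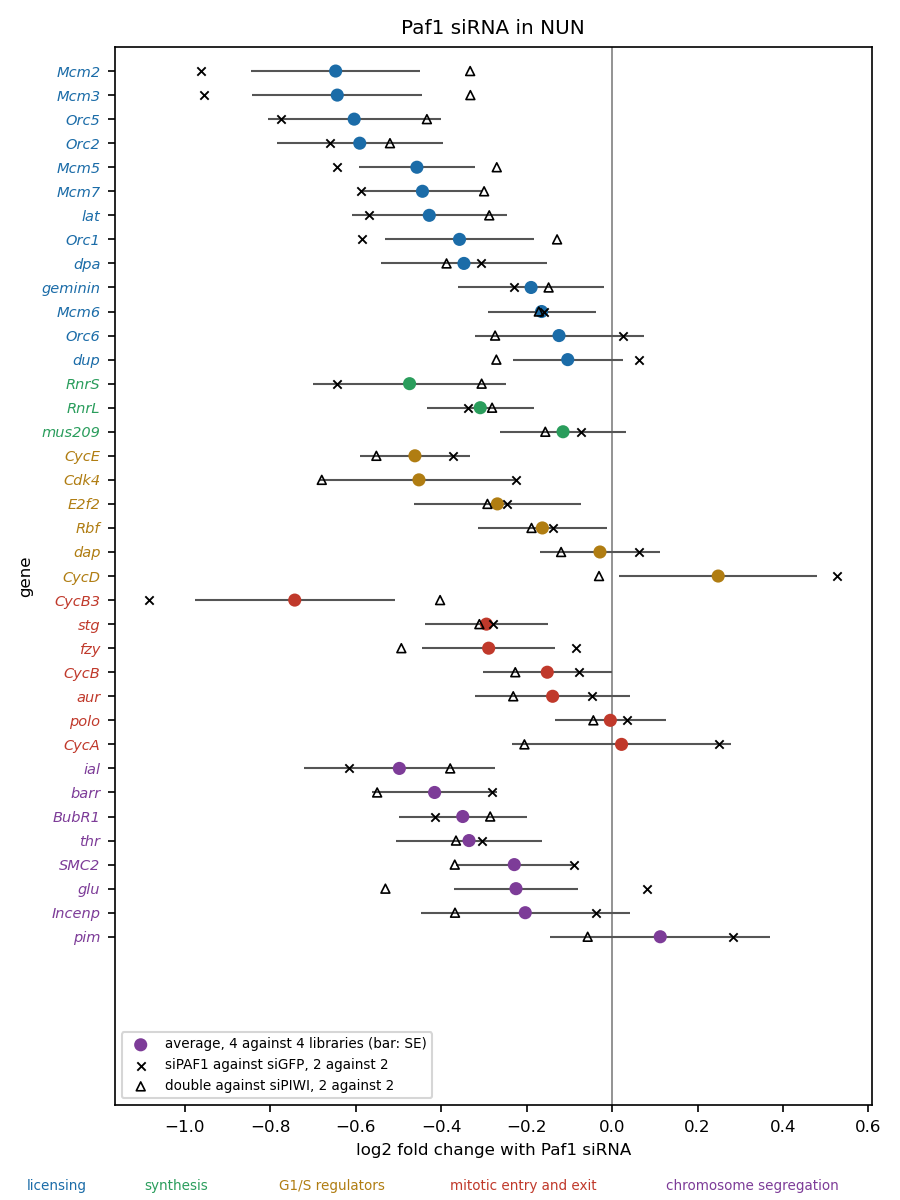
Log2 fold change with Paf1 siRNA in NUN for each of the 37 members, coloured by role: filled circles give the average over 4 against 4 libraries with its SE, crosses siPAF1 against siGFP and triangles double against siPIWI. Circles lie below 0 for 34 members, and only CycD, pim and CycA lie above 0.

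The MCM helicase, the ring that unwinds DNA at the replication fork, had estimates below 0 for each of its 6 subunits, none of which passed the test (edgeR adjusted p from 0.227 to 0.579). Summed over these, the NUN level was 1093 and 953 CPM in siGFP, 1011 and 996 CPM in siPIWI, 735 and 648 CPM in siPAF1, and 867 and 772 CPM in double, with OSS_146 given first here and below. All 4 sums with Paf1 siRNA lay below all 4 without it, and siPAF1 lay lowest.

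Mcm5, a subunit of that ring, has its CDS model on chromosome 3R between positions 6614249 and 6616872 in the authors' coordinates (build: not given in the sources used here). It stood at 198 and 172 CPM in siGFP, 177 and 185 CPM in siPIWI, 125 and 112 CPM in siPAF1, and 159 and 141 CPM in double. The groups with and without Paf1 siRNA did not overlap. The log2 fold change was -0.46 ± 0.13 (edgeR adjusted p = 0.227), which is a level 27.1% lower.

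Mcm2 stood at 262 and 159 CPM in siGFP, 170 and 206 CPM in siPIWI, 122 and 94.4 CPM in siPAF1, and 172 and 127 CPM in double. Its siGFP library OSS_146 was the highest, and the double library OSS_146 reached into the range of the controls, so the groups overlapped. Its estimate was -0.65 ± 0.20 (edgeR adjusted p = 0.244). Mcm3 stood at 169 and 105 CPM in siGFP, 130 and 151 CPM in siPIWI, 69.8 and 71.1 CPM in siPAF1, and 135 and 88.2 CPM in double. As for Mcm2, the double library OSS_146 lay among the controls. For Mcm3 the log2 fold change was -0.64 ± 0.20 (edgeR adjusted p = 0.248).

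The remaining subunits of the helicase were Mcm7 at -0.44 ± 0.14, dpa, the Mcm4 subunit, at -0.35 ± 0.19 (-0.13 without the siPIWI library OSS_146), and Mcm6 at -0.17 ± 0.13. Mcm7 lay between 123 and 129 CPM without Paf1 siRNA and between 77.9 and 111 CPM with it. Mcm6 lay between 176 and 197 CPM without it and between 155 and 175 CPM with it. Neither gene's groups overlapped, although the estimate for Mcm6 was small.

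The origin recognition complex marks where helicases are loaded. Its members were Orc5 at -0.60 ± 0.20, Orc2 at -0.59 ± 0.19, lat, the Orc3 subunit, at -0.43 ± 0.18, Orc1 at -0.36 ± 0.17 and Orc6 at -0.12 ± 0.20. Orc2 and lat did not overlap between the 4 libraries with and the 4 without Paf1 siRNA. For Orc6, 36.2% of the NUN counts on its CDS lay on the opposite strand, the highest share among the members, so its sense level rests on the strand separation. Orc2 held 11.5% and lat 13.8% on the opposite strand. Outside this complex the NUN share was 23.35% for thr, 23.22% for E2f2, 15.36% for fzy and 13.13% for SMC2.

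The loader dup, the fly Cdt1, was at -0.10 ± 0.13. Its inhibitor geminin, the licensing member with the highest NUN level per kb, was at -0.19 ± 0.17. Transcripts of geminin stood at 102 and 78.1 CPM in siGFP, 94.4 and 129 CPM in siPIWI, 66.9 and 86.0 CPM in siPAF1, and 102 and 97.8 CPM in double. The groups overlapped, and siPAF1 held its lowest library. Over the 13 licensing genes the median was -0.43, and 7 reached an unadjusted p under 0.05.

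**Figure D2:**
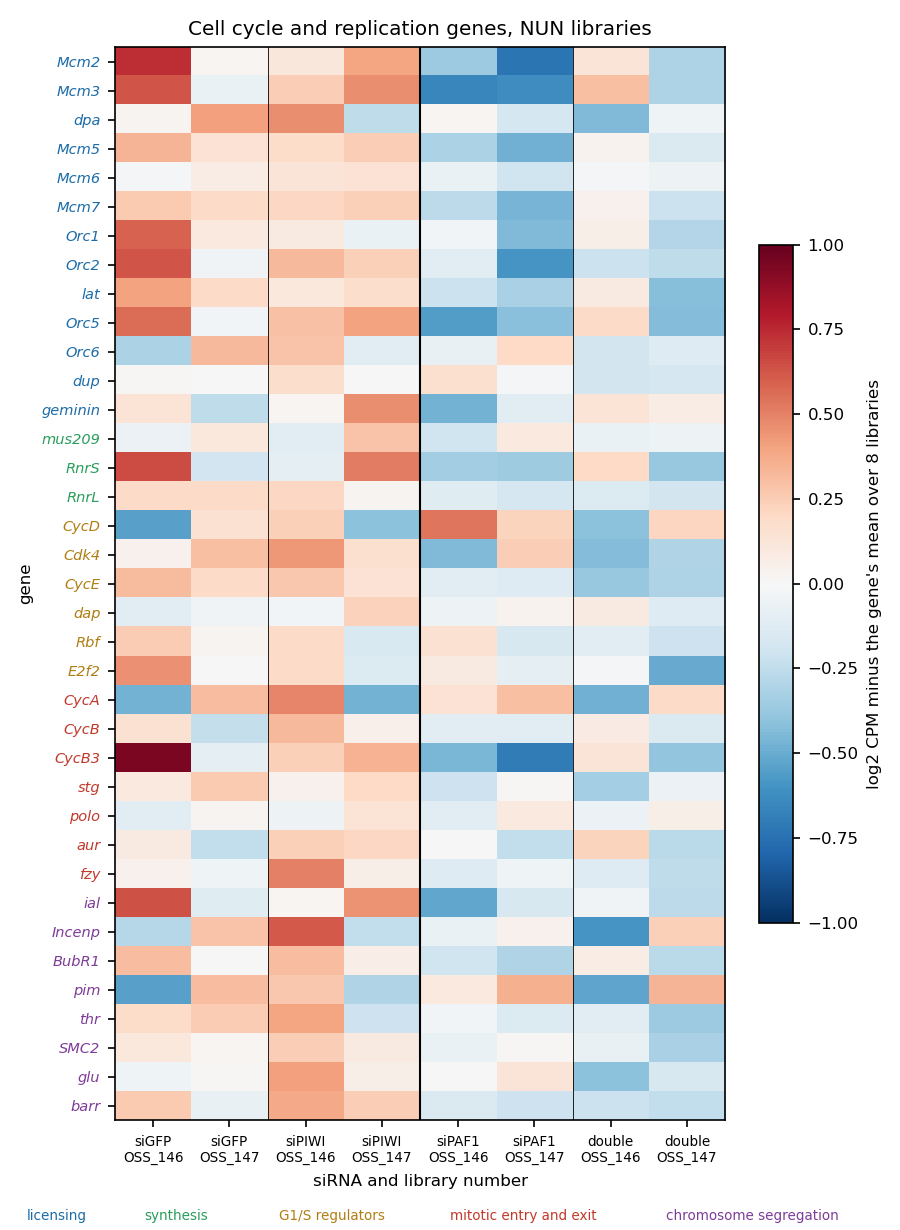
Log2 CPM of each member in each NUN library minus the member's mean over the 8 libraries, with members in rows coloured by role and libraries in columns by siRNA. The black line separates the 4 libraries without Paf1 siRNA (left) from the 4 with it (right), where most rows are lower.

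Of the 3 synthesis genes, those for ribonucleotide reductase, the enzyme that makes deoxyribonucleotides, had the lower estimates. RnrL, its large subunit, stood at 325 and 325 CPM in siGFP, 328 and 291 CPM in siPIWI, 261 and 254 CPM in siPAF1, and 259 and 251 CPM in double. The 4 libraries with Paf1 siRNA lay close together, below all 4 without it. The estimated log2 fold change was -0.31 ± 0.13 (edgeR adjusted p = 0.343).

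The small subunit RnrS stood at 653 and 362 CPM in siGFP, 390 and 591 CPM in siPIWI, 326 and 324 CPM in siPAF1, and 475 and 318 CPM in double. Its libraries varied within the control groups by more than the groups differed. Its estimate was -0.47 ± 0.23 (edgeR adjusted p = 0.396). The gene mus209, for the sliding clamp PCNA that holds the polymerase on DNA, stood at 205 and 231 CPM in siGFP, 198 and 261 CPM in siPIWI, 186 and 228 CPM in siPAF1, and 204 and 206 CPM in double. Its groups overlapped throughout, and the estimate was -0.11 ± 0.15.

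Among regulators of the G1 to S step, CycE, the S phase cyclin, had the lowest p of all members. Its CDS model lies on chromosome 2L between positions 15727761 and 15746609. It stood at 202 and 185 CPM in siGFP, 195 and 179 CPM in siPIWI, 151 and 148 CPM in siPAF1, and 125 and 131 CPM in double. All 4 libraries with Paf1 siRNA lay below all 4 without it, and the double libraries were the lowest. The log2 fold change was -0.46 ± 0.13 (edgeR adjusted p = 0.207), which is a level 27.4% lower.

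Cdk4, the G1 kinase, stood at 16.3 and 19.5 CPM in siGFP, 21.4 and 17.7 CPM in siPIWI, 11.7 and 18.8 CPM in siPAF1, and 11.8 and 12.9 CPM in double. The siPAF1 library OSS_147 lay among the controls, and the estimate was -0.45 ± 0.23. E2f2, a repressive E2F factor, stood at 45.3 and 33.0 CPM in siGFP, 37.6 and 30.1 CPM in siPIWI, 35.1 and 30.8 CPM in siPAF1, and 32.7 and 23.2 CPM in double. The groups overlapped, and the estimate was -0.27 ± 0.20.

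The gene dap, for the p27-type inhibitor of Cyclin E and its kinase, stood at 97.5 and 102 CPM in siGFP, 103 and 123 CPM in siPIWI, 101 and 107 CPM in siPAF1, and 112 and 96.1 CPM in double. It had the highest NUN level per kb of its group, its libraries overlapped fully, and its estimate was -0.03 ± 0.14. Rbf, the retinoblastoma family protein that restrains E2F, was at -0.16 ± 0.15. CycD, the G1 cyclin that partners Cdk4, was the member with the highest estimate, at 0.25 ± 0.23.

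Of the 7 mitotic genes, 6 had estimates below 0 and none passed the test. CycB3, a mitotic cyclin on chromosome 3R between positions 20694075 and 20696617, had the lowest estimate of all members. It stood at 140 and 68.4 CPM in siGFP, 85.9 and 92.6 CPM in siPIWI, 53.1 and 45.0 CPM in siPAF1, and 79.7 and 55.4 CPM in double. The siGFP library OSS_146 stood far above the others, and the siGFP library OSS_147 lay below the double library OSS_146. The log2 fold change was -0.74 ± 0.23 (edgeR adjusted p = 0.255), and without the siGFP library OSS_146 it was -0.44.

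The gene stg, for the Cdc25 phosphatase that opens mitosis, stood at 118 and 132 CPM in siGFP, 113 and 127 CPM in siPIWI, 95.3 and 111 CPM in siPAF1, and 87.3 and 106 CPM in double. The groups did not overlap, by a narrow margin, and the estimate was -0.29 ± 0.14. The gene fzy, for the Cdc20 activator of the anaphase-promoting complex, stood at 77.5 and 73.1 CPM in siGFP, 107 and 78.3 CPM in siPIWI, 68.7 and 73.2 CPM in siPAF1, and 68.8 and 63.2 CPM in double. A single siPAF1 library reached the lowest control, and the estimate was -0.29 ± 0.16.

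The gene polo, for the kinase that acts from mitotic entry to cytokinesis, had the highest NUN level per kb of all members, at 420 ± 27.1 CPM per kb (SD over 8 libraries). It stood at 675 and 739 CPM in siGFP, 702 and 798 CPM in siPIWI, 674 and 776 CPM in siPAF1, and 699 and 756 CPM in double. With and without Paf1 siRNA its range was nearly the same. A 95% interval of its log2 fold change, from the SE and normal quantiles, ran from -0.26 to 0.25. It is narrower than an interval from the quasi-likelihood test would be. The cyclins CycA and CycB were at 0.02 ± 0.26 and -0.15 ± 0.15, and aur, for the Aurora A kinase, at -0.14 ± 0.18.

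**Figure D3:**
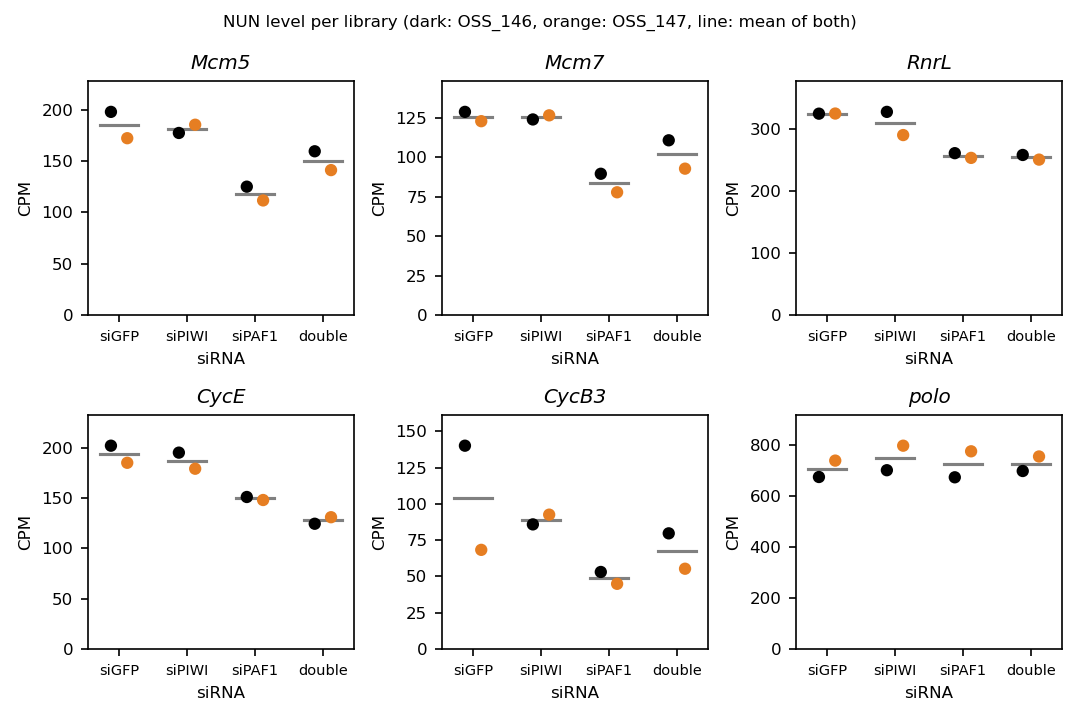
CPM in each NUN library for 6 members, with siRNA on the horizontal axis, 1 point per library and a line at the mean of both. Mcm5, Mcm7, RnrL and CycE are lower in each of the 4 libraries with Paf1 siRNA than in any of the 4 without it, CycB3 overlaps and polo lies between 674 and 798 CPM throughout.

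Among segregation genes, barr, a condensin subunit, stood at 96.1 and 76.1 CPM in siGFP, 104 and 95.1 CPM in siPIWI, 72.3 and 69.3 CPM in siPAF1, and 68.8 and 67.5 CPM in double. The groups did not overlap, and the log2 fold change was -0.42 ± 0.15 (edgeR adjusted p = 0.288). The condensin ATPases SMC2 and glu were at -0.23 ± 0.14 and -0.22 ± 0.15.

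BubR1, a spindle checkpoint protein, stood at 224 and 181 CPM in siGFP, 224 and 189 CPM in siPIWI, 157 and 146.1 CPM in siPAF1, and 190 and 149 CPM in double. Only the double library OSS_146 reached the controls, and the estimate was -0.35 ± 0.15. The gene ial, for the Aurora B kinase, stood at 42.6 and 25.3 CPM in siGFP, 27.9 and 37.4 CPM in siPIWI, 19.1 and 24.6 CPM in siPAF1, and 26.9 and 22.9 CPM in double. Its groups overlapped, and the estimate was -0.50 ± 0.22. Incenp, the partner of Aurora B in the chromosomal passenger complex, was at -0.20 ± 0.24.

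The gene pim, the fly securin, had the highest NUN level per kb of the segregation genes and stood at 29.5 and 53.2 CPM in siGFP, 51.8 and 35.0 CPM in siPIWI, 46.0 and 55.1 CPM in siPAF1, and 29.8 and 54.3 CPM in double. The ranges overlapped, and the estimate of 0.11 ± 0.26 had no settled sign, running from -0.14 to 0.36 as single libraries were left out. The gene thr, for the regulatory subunit of separase, was at -0.33 ± 0.17.

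In all, 10 members did not overlap between the 4 NUN libraries with and the 4 without Paf1 siRNA, each lower with it (5.69% of all genes), and 0 were higher (3.67%). They were Mcm5, Mcm6, Mcm7, Orc2, lat, RnrL, CycE, stg, SMC2 and barr. For some the margin between the lowest library without and the highest with Paf1 siRNA was narrow. It was 31.4 against 31.05 CPM for lat, 176.4 against 175.4 CPM for Mcm6, 111.5 against 110.5 CPM for SMC2 and 113.3 against 111.1 CPM for stg. Leaving out 1 library brought 16 of the 37 estimates nearer 0 by over 1.5 times and turned the sign of 6. Without the siGFP library OSS_146, RnrS was at -0.23, ial at -0.29, Orc1 at -0.23 and E2f2 at -0.15. Without the siPIWI library OSS_146, thr was at -0.16, fzy at -0.16 and glu at -0.12. Among the OSS_146 libraries the members' median was -0.34, with 35 of 37 below 0 (50.6% of all genes). Among the OSS_147 libraries it was -0.24, with 33 of 37 below 0 (50.8% of all genes). These number sets share no library.

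The Paf1 effect can be read without and with Piwi siRNA, in contrasts that share no library. For siPAF1 against siGFP, 29 of 37 members were below 0 (50.3% of all genes) with a median of -0.25. For double against siPIWI, 37 of 37 were below 0 (50.7% of all genes) with a median of -0.29. That count holds for the means of both libraries. Among the OSS_146 libraries alone 31 of 37 were below 0 (51.9% of all genes), and among the OSS_147 libraries 32 of 37 (51.8%). For siPAF1 against siGFP 29 of 37 were below 0 within each number. Below 0 in both were 29 of 37 members, against 35.2% of all genes. In both contrasts edgeR called 0 genes. At an unadjusted p under 0.05 were 8 members in the first (10.2% of all genes) and 4 in the second (3.61%), and DESeq2 called 32 and 16 genes with 0 members. The counts of 8 and 4 members fell or rose as single libraries were left out, so they depend on single libraries.

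CycB3 was at -1.08 in siPAF1 against siGFP and -0.40 in double against siPIWI, and Mcm2 at -0.96 and -0.33. Without the siGFP library OSS_146 the first contrast was -0.48 for CycB3 and -0.56 for Mcm2, and without the double library OSS_147 the second was -0.16 and -0.13. CycE was at -0.37 and -0.55, and glu at 0.08 and -0.53. The test of the difference between the contrasts called 0 of 8232 genes by edgeR (67 at an unadjusted p under 0.05, which is 0.814%, 0 of them members), and DESeq2 called 1 gene.

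The share of sense counts on untranslated windows split the NUN libraries into 3 between 15.4% and 18.1% (siGFP OSS_146, siPIWI OSS_147 and double OSS_146) and 5 between 23.0% and 26.2%. Only 1 of the 3 low libraries had Paf1 siRNA. Within the 5 libraries, 3 against 2, the members' median was -0.30, with 35 of 37 below 0 (50.8% of all genes). Within the 3, 1 against 2, it was -0.20, with 33 of 37 below 0 (49.8% of all genes). When only the 5 were fitted, a choice made after seeing the data, edgeR called 629 of 8499 genes (7.40%) and 8 members, all lower: CycB3, CycE, Mcm2, Mcm3, Mcm7, Orc5, dpa and thr. In that fit 3 of the 4 groups had 1 library, so its 1 residual degree of freedom came from siPAF1 alone and the other groups were assumed to vary like it. There double against siPIWI, 1 library against 1, called 497 genes (5.85%) and 2 members, fzy at -0.75 and thr at -0.76. The summed NUN level of 6 blood cell markers lay between 300 and 375 CPM without Paf1 siRNA and between 331 and 478 CPM with it. Its markers went both ways. Without and with Paf1 siRNA, srp lay at 122 to 200 and 154 to 320 CPM, and Sr-CI at 4.99 to 11.8 and 15.9 to 20.4 CPM. Pxn lay at 74.7 to 113 and 46.5 to 76.8 CPM, and He was at 0 in every library. By edgeR 3 of the 5 tested had an unadjusted p under 0.05 (13.2% of all genes) and 0 were called. The part of these markers in the result was not tested.

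For Piwi siRNA in NUN edgeR called 14 genes (0.170%) and 0 members. The estimate was below 0 for 17 of 37 members, against 49.5% of all genes, and the median was 0.03. At an unadjusted p under 0.05 there were 0 members (3.71% of all genes), and DESeq2 called 32 genes with 0 members. The lowest and highest members were at -0.22 and 0.35. For siPIWI against siGFP, 16 of 37 members were below 0 (49.5% of all genes) and edgeR called 10 genes (0.121%) and 0 members. For double against siPAF1, 20 of 37 were below 0 (50.5%), and edgeR called 0 genes, with 1 member at an unadjusted p under 0.05 (2.81% of all genes), while DESeq2 called 5 genes.

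In cyto, 35 members were tested, since Cdk4 and CycE had too few counts. For Paf1 siRNA edgeR called 11 of 5714 genes (0.193%) and 0 members, and DESeq2 called 22 genes. The estimate was below 0 for 27 of 35 members, against 50.4% of all genes, and the median was -0.19. At an unadjusted p under 0.05 (8.91% of all genes) were BubR1, at -0.77 ± 0.29, and Mcm3, at -0.68 ± 0.30. BubR1 stood at 179 and 140 CPM in siGFP, 120 and 115 CPM in siPIWI, 97.9 and 61.2 CPM in siPAF1, and 79.2 and 81.7 CPM in double. Its groups did not overlap, nor did those of Orc5 and fzy, each with the lower range under Paf1 siRNA (2.43% of all genes). The Paf1 effect was compared between fractions by its own test, which called 0 of 7982 genes (349 at an unadjusted p under 0.05, which is 4.37%, 0 of them members; DESeq2 called 4 genes). The members' median difference was -0.02.

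In cyto, both siGFP libraries lay above all 6 others for 6 of 35 members, against 8.98% of all genes, an order looked for after the values were seen. These were Mcm3, Orc2, Mcm7, RnrS, BubR1 and stg. Mcm3 stood at 532 and 620 CPM in siGFP, 280 and 285 CPM in siPIWI, 289 and 233 CPM in siPAF1, and 195 and 292 CPM in double. Orc2 stood at 201 and 187 CPM in siGFP, 91.6 and 78.6 CPM in siPIWI, 93.5 and 85.9 CPM in siPAF1, and 62.2 and 102 CPM in double. The lower siGFP library of Mcm7 lay at 136 CPM against at most 107 CPM elsewhere, that of RnrS at 202 against 186 CPM, and that of stg at 18.08 against 18.06 CPM. These levels rest on TMM factors of 0.651 and 0.901 for the siGFP libraries and of 0.867 to 1.37 for the others. Whether the order holds under another scaling was not tested. The interaction of both siRNAs was 0.92 ± 0.60 for Mcm3 and 1.04 ± 0.58 for Orc2 (edgeR adjusted p = 0.968 for each), and by edgeR it called 0 genes (155 at an unadjusted p under 0.05, which is 2.71%, 0 of them members), as did DESeq2.

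For Piwi siRNA in cyto edgeR called 2 genes (0.0350%) and 0 members, with 5 members at an unadjusted p under 0.05 (10.7% of all genes). The median was 0.15, against 0.10 over all genes, but it was 0.46 among the OSS_146 libraries and -0.15 among the OSS_147 libraries. Orc1 was the 1 member that did not overlap, higher with Piwi siRNA (1.96% of all genes), at 0.56 ± 0.35. With the share of counts on untranslated windows as a covariate, edgeR called 333 genes (5.83%) and 1 member, glu at 0.95. Without the siPIWI library OSS_147, edgeR called 418 genes (6.71%) and 3 members, CycB at 1.05, dap at 1.57 and glu at 1.09.

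Between the fractions, members went both ways. NUN against cyto, 8 libraries each and relative to all genes, edgeR called 6738 of 7982 genes (84.4%). Of the 37 members 25 were called, 11 higher in NUN (47.1% of all genes) and 14 lower (37.3%). The members' median was -0.20, against 0.40 over all genes. With DESeq2's size factors, which raise the median of all genes by 0.26, 15 members were called higher and 10 lower, with a median of 0.06, so the directions given here are relative to TMM scaling. Mcm2, dpa, Orc6 and RnrL, lower in NUN here, were not called with those size factors (edgeR adjusted p = 0.148, 0.155, 0.0705 and 0.308). Leaving out 1 library at a time left 22 to 28 members called. On CDS counts most licensing genes called were lower in NUN, at 8 of 10, while the 3 called regulators of the G1 to S step were higher. This contrast between the role groups did not hold once counts at the 3' untranslated end were added. Mcm2, dpa, Orc5 and Orc6 were then not called. Of the G1 to S regulators, CycE, Rbf and E2f2 were then called higher, and dap, CycD (-0.64) and Cdk4 (-0.75) lower. In the next paragraphs levels are CPM scaled over all 16 libraries, given as lowest, median and highest of 8.

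Of the licensing genes, Mcm3 lay at 41.1, 67.6 and 99.6 CPM in NUN and at 337, 486 and 1069 CPM in cyto, and its log2 fold change was -3.09 ± 0.21 (edgeR adjusted p = 7.61e-13). Orc2 lay at 22.1, 31.1 and 51.0 CPM in NUN and at 107, 162 and 348 CPM in cyto, at -2.45 ± 0.19. Mcm7 lay at 46.3, 67.3 and 75.8 CPM in NUN and at 136, 180 and 243 CPM in cyto, at -1.56 ± 0.17. For these 3 genes every cyto library lay above every NUN library. The inhibitor geminin lay at 39.4, 55.7 and 73.4 CPM in NUN and at 96.1, 126 and 201 CPM in cyto, at -1.24 ± 0.18. Its ranges did not overlap either, while those of the next genes did. Orc5 was at -0.80 ± 0.17 (17.3, 26.5 and 37.6 CPM against 32.7, 43.3 and 61.2 CPM) and Orc6 at -0.68 ± 0.21 (16.02, 18.6 and 24.5 CPM against 19.4, 30.96 and 50.8 CPM). Mcm2 was at -0.55 ± 0.18 (56.1, 94.7 and 154 CPM against 94.1, 131 and 178 CPM) and dpa at -0.54 ± 0.19 (65.9, 90.8 and 124 CPM against 95.7, 127 and 192 CPM). Subunits of the same helicase thus ran from -3.09 for Mcm3 to -0.12 for Mcm6.

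Higher in NUN among licensing genes were dup and Orc1. The loader dup lay at 105, 121 and 136 CPM in NUN and at 16.4, 39.9 and 50.7 CPM in cyto, at 1.64 ± 0.20. Orc1 lay at 57.8, 77.8 and 117 CPM in NUN and at 26.4, 32.6 and 43.5 CPM in cyto, at 1.24 ± 0.18. Neither gene's ranges overlapped. Of the synthesis genes, mus209 lay at 109, 121 and 149 CPM in NUN and at 405, 448 and 552 CPM in cyto, at -1.88 ± 0.18, with no overlap. RnrL lay at 146.8, 160 and 191 CPM in NUN and at 153, 221 and 351 CPM in cyto, at -0.46 ± 0.18, with overlapping ranges, and its call was lost without any 1 of 5 libraries (highest edgeR adjusted p = 0.116): siPAF1 and double OSS_146 and siGFP OSS_147 in cyto, and siPIWI and siPAF1 OSS_147 in NUN. RnrS was not called on CDS counts, but was called lower in NUN once counts at the 3' untranslated end were added.

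Of the G1 to S regulators, CycE lay at 71.7, 95.7 and 119 CPM in NUN and at 5.74, 9.88 and 32.4 CPM in cyto, at 3.02 ± 0.23. The inhibitor dap lay at 56.2, 59.4 and 70.3 CPM in NUN and at 2.35, 12.3 and 30.2 CPM in cyto, at 2.17 ± 0.24. With the 3' window counts added, the direction for dap turned to -0.77 (edgeR adjusted p = 7.87e-05), and 93.9% of its summed counts in cyto lay in that window. Rbf lay at 74.1, 82.1 and 103 CPM in NUN and at 9.68, 28.8 and 55.0 CPM in cyto, at 1.29 ± 0.23. For all 3 genes the lowest NUN library lay above the highest cyto library, though counts in cyto went down to 3 for CycE, 1 for dap and 4 for Rbf.

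Of the mitotic genes, CycB3 lay at 26.7, 42.7 and 82.5 CPM in NUN and at 5.74, 12.6 and 33.5 CPM in cyto, at 1.62 ± 0.25. Its cyto libraries held 3 to 31 counts each. The phosphatase gene stg lay at 50.2, 65.6 and 76.3 CPM in NUN and at 14.3, 25.2 and 37.7 CPM in cyto, at 1.36 ± 0.18, but at -0.45 with the 3' window counts added (edgeR adjusted p = 0.0107). CycB lay at 67.2, 78.8 and 99.2 CPM in NUN and at 21.8, 33.0 and 69.1 CPM in cyto, at 1.14 ± 0.20. These were higher in NUN, and the ranges of stg alone of these 3 did not overlap. The activator gene fzy lay at 37.0, 42.8 and 61.2 CPM in NUN and at 57.3, 83.9 and 105 CPM in cyto, and at -0.96 ± 0.16 it was lower in NUN.

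Of the segregation genes, ial lay at 11.3, 15.0 and 25.1 CPM in NUN and at 141, 187 and 294 CPM in cyto, at -3.59 ± 0.21 (edgeR adjusted p = 4.71e-14). Its partner Incenp lay at 50.2, 77.2 and 115 CPM in NUN and at 165, 180 and 211 CPM in cyto, at -1.25 ± 0.19. Both were higher in every cyto library than in any NUN library. BubR1 was at -0.78 ± 0.18 (86.9, 106 and 132 CPM against 104, 185 and 311 CPM). The separase subunit gene thr lay at 35.9, 44.1 and 59.7 CPM in NUN and at 3.36, 8.18 and 32.4 CPM in cyto, at 2.22 ± 0.25, with no overlap. Its cyto level rests on 2 to 30 counts per library. The securin gene pim was at 0.53 ± 0.23 (17.1, 28.4 and 32.8 CPM against 10.3, 18.9 and 26.98 CPM) and barr at 0.50 ± 0.20 (39.5, 43.2 and 59.9 CPM against 14.1, 34.2 and 46.8 CPM), both with overlapping ranges. The call of pim was lost without any 1 of 8 libraries (highest edgeR adjusted p = 0.121): siPIWI OSS_146 and siGFP, siPAF1 and double OSS_147 in NUN, and siPAF1 OSS_146 and siGFP, siPIWI and double OSS_147 in cyto. That of barr was lost without the siGFP or the siPAF1 library OSS_146 of cyto (highest edgeR adjusted p = 0.0936).

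The place of the reads along the transcript differed between the fractions. Windows at the 3' untranslated end held 8.67% to 14.5% of sense counts in NUN and 30.2% to 36.8% in cyto. Of the summed CDS and 3' window counts, the 3' window held 42.9% in NUN and 93.9% in cyto for dap, 18.7% and 85.1% for stg, 22.0% and 76.9% for CycA, and 7.50% and 74.6% for CycE. For mus209 the shares were 12.7% and 13.2%, and for ial 6.56% and 6.74%. With CDS and 3' window counts summed, an alternative added after seeing the data, dap and stg were called lower in NUN, as given above. CycE stayed higher in NUN at 1.66 and ial lower at -2.83. Of the 25 members called on the CDS, 8 were called higher and 8 lower with both counts, 2 turned from higher to lower and 7 were no longer called. Of the members not called on the CDS, 3 were called higher with the sum (E2f2, SMC2 and glu) and 4 lower. These 4 were CycD, Cdk4, RnrS at -0.9998 (edgeR adjusted p = 3.08e-05) and CycA at -0.85 (edgeR adjusted p = 2.22e-05). The windows' lengths differ between libraries, so these sums are less comparable than CDS counts.

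**Figure D4:**
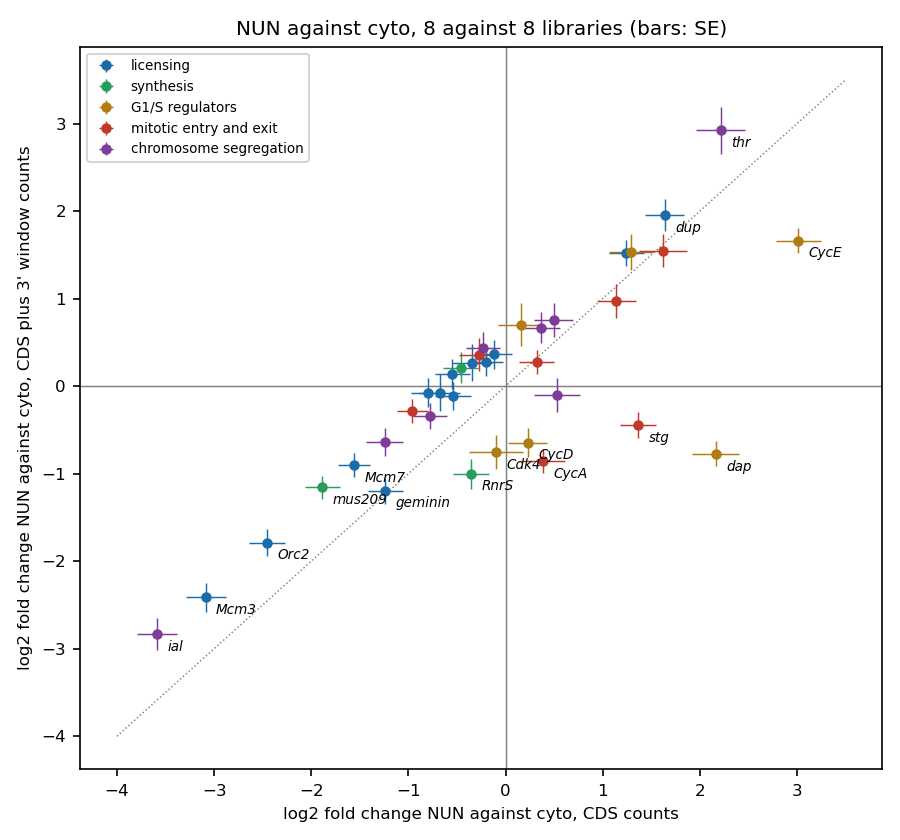
Log2 fold change of NUN against cyto for each member on CDS counts (horizontal) and on CDS plus 3' window counts (vertical), with SE bars, coloured by role, and a dotted line of equality. Mcm3, Orc2 and ial are lower in NUN and thr, dup and CycE higher by both counts, while dap and stg are higher by the CDS and lower by the sum.

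RnrS, mus209 and geminin were among the 5 members with the highest levels per kb of CDS in both fractions. In NUN, polo (420 CPM per kb) was followed by RnrS at 364 ± 110, mus209 at 275 ± 30.2, geminin at 163 ± 31.9 and dap at 143 ± 11.9 CPM per kb (SD, n = 8). The SD of RnrS reaches both neighbours, and those of geminin and dap overlap. In cyto, mus209 led at 344 ± 43.8 CPM per kb, followed by RnrS at 156 ± 16.3, Mcm3 at 139 ± 61.3, geminin at 131 ± 36.4 and ial at 116 ± 28.2 CPM per kb (SD, n = 8). These last 4 do not differ beyond their spread. In cyto polo, at 115.6 ± 27.1 CPM per kb, was level with ial at 115.7 CPM per kb, so its place outside the 5 highest there is not meaningful. Of the other members among the 5 highest in 1 fraction, dap was at 11.4 ± 7.69 CPM per kb in cyto. Mcm3 and ial were at 46.7 ± 15.1 and 28.6 ± 7.90 CPM per kb in NUN. The lowest levels were those of lat in NUN, at 13.7 ± 2.66 CPM per kb, and thr in cyto, at 1.54 ± 1.38 CPM per kb.

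Other genes of these pathways, named in 2 lists, were read for Paf1 siRNA in NUN against the 50.9% of all genes below 0 and the 13.2% at an unadjusted p under 0.05 in either direction. Of 30 further replication genes tested, 27 were below 0 with a median of -0.27, 9 had an unadjusted p under 0.05, and 0 were called. Of 47 further cell cycle genes, 32 were below 0 with a median of -0.14, 10 had an unadjusted p under 0.05, and 0 were called. The lowest p-values were those of Mcm10, a helicase cofactor, at -0.60 ± 0.14, ida, a subunit of the anaphase-promoting complex, at -0.74 ± 0.19, CDC45L, a helicase cofactor, at -0.65 ± 0.18, and Orc4, an origin recognition subunit, at -0.92 ± 0.26. Their edgeR adjusted p-values lay between 0.158 and 0.210.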

How the data were processed

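The authors deposited raw counts of uniquely aligned reads per transcript model and region, for each strand. The labels' protocols give a strand-specific kit, and Bowtie is the aligner listed in the submitters' processing notes. The genome build is not given in the sources used here. The measure was the sense-strand unique count on the CDS of the longest model of each of 13892 genes. Members and lists were chosen with earlier results of these data known.

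Tests used edgeR 4.0.16 in R 4.3.3 (filterByExpr, TMM, robust quasi-likelihood test, 1 coefficient per group, Benjamini-Hochberg over all genes tested, threshold 0.05), checked on simulated data. The fits held 8232 genes in NUN, 5714 in cyto and 7982 across fractions, with biological coefficients of variation of 21.2%, 32.0% and 25.1%. TMM factors ran from 0.973 to 1.05 in NUN, 0.651 to 1.37 in cyto and 0.375 to 1.83 across fractions. Levels are CPM on TMM-scaled sizes. Alternatives were DESeq2 1.42.0, its size factors, no count filter, all alignments, a replicate block, each library left out, and those added after seeing the data. NUN values per library were printed, in each role group, for the 3 members with the lowest p for Paf1 siRNA. The member with the highest NUN level per kb in each role group was added. Members called between the fractions are given by the lowest, median and highest of 8 libraries. Other members are given by their estimates.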

Additional observations from a re-analysis of the deposited data

How the results depend on the processing

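With Paf1 siRNA in NUN the members' median stayed below 0 under each alternative run, from -0.35 to -0.20. By edgeR, 0 members were called with all 8 libraries except without the count filter, where 344 genes and 3 members (CycB3, Mcm2 and Mcm3) passed. The number of genes called for Paf1 siRNA in NUN was 92 by DESeq2's Wald test, 12 with all alignments, 113 with the untranslated share as a covariate, and 629 with 8 members among the 5 libraries of higher untranslated share, where siGFP, siPIWI and double have 1 library each and 1 residual degree of freedom is left. These last 2 alternatives and the sum of CDS and 3' window counts were chosen after seeing the data. The cause of these differences was not tested.

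DESeq2's Wald test called 32 genes for Piwi siRNA in NUN, 1 for the interaction, 32 for siPAF1 against siGFP, 16 for double against siPIWI, 19 for siPIWI against siGFP, 5 for double against siPAF1, 22 for Paf1 siRNA in cyto and 4 for the Paf1 effect between fractions. Without the count filter edgeR called 62, 5, 193 (3 of them members), 35, 38, 24 and 57 genes in the first 7 of these, 8 for Piwi siRNA in cyto and 3 for the effect between fractions. With the untranslated share as a covariate it called 37 genes for Piwi siRNA in NUN, 15 for siPAF1 against siGFP, 19 for double against siPIWI, 25 for siPIWI against siGFP, 301 for Paf1 siRNA in cyto, and 333 with 1 member for Piwi siRNA in cyto. Among the 5 libraries, where all but siPAF1 are single libraries, it called 91 genes for Piwi siRNA, 71 for the interaction, 117 for siPAF1 against siGFP, 497 (5.85%) with 2 members (median -0.42) for double against siPIWI, 143 (median 0.14) for siPIWI against siGFP and 36 for double against siPAF1. Of these contrasts double against siPIWI and siPIWI against siGFP set 1 library against 1, with a spread taken from siPAF1. With CDS and 3' window counts summed it called 6 genes for Paf1 siRNA and 1 for Piwi siRNA in cyto, and 1 for the effect between fractions, as it did with DESeq2 size factors.

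The library numbers were not taken to pair the samples, within or between the fractions. A pairing of the NUN and cyto libraries that share siRNA and number was not tested. The deviations of same-numbered libraries correlated between -0.314 and 0.646 in NUN (4 of 6 pairs of groups over 0.1) and between -0.165 and 0.569 in cyto (3 of 6). With a replicate block edgeR called 14 genes for Paf1 siRNA and 6 for Piwi siRNA in NUN, 1 for double against siPIWI, 6 for siPIWI against siGFP, 78 and 9 for Paf1 and Piwi siRNA in cyto, and 1 for the effect between fractions. The replicate block called 0 members in each of these.

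Estimates near 0 changed sign. For Paf1 siRNA in NUN, dap was at 0.0014 with the covariate and 0.049 with the summed counts, CycA at -0.18 with the covariate, -0.017 with the summed counts and -0.19 among the 5 libraries, and pim at -0.084 with the covariate and -0.00022 among the 5. There geminin was at 0.013 and polo at 0.038, and polo was at 0.0077 with DESeq2 size factors, 0.0079 by its Wald test and 0.011 without the filter. The gene glu was at -0.035 in siPAF1 against siGFP with the covariate, and dap at -0.14 for Piwi siRNA in cyto with the summed counts. For NUN against cyto the members' median was 0.061 with DESeq2 size factors, 0.054 by its Wald test and -0.073 with the summed counts. Mcm6 was then at 0.14, 0.14 and 0.36, and with the summed counts Mcm2 was at 0.14, RnrL at 0.21, dap at -0.77, stg at -0.45 and pim at -0.10.

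Leaving out each library in turn, genes called ranged from 0 (without siPIWI OSS_146) to 52 (without siGFP OSS_147) for Paf1 siRNA in NUN, 0 to 13 for Piwi siRNA, 0 to 5 for double against siPIWI and 0 to 8 for siPIWI against siGFP. In cyto they ranged from 1 (without siGFP OSS_146) to 134 (without siPIWI OSS_147) for Paf1 siRNA, 0 to 418 for Piwi siRNA (0 to 3 members, the highest without siPIWI OSS_147) and 0 to 2 for the interaction. The effect between fractions ranged from 0 to 1. The members' median ranged from -0.35 to -0.20 for Paf1 siRNA in NUN, -0.085 to 0.036 for the interaction, -0.40 to -0.19 for double against siPIWI and -0.0072 to 0.071 for siPIWI against siGFP. It ranged from -0.37 to -0.14 for Paf1 siRNA in cyto, -0.20 to 0.20 for the interaction there and -0.27 to -0.049 for NUN against cyto. For Paf1 siRNA in NUN, Orc6 ranged from -0.26 to 0.054, dap from -0.085 to 0.035, CycA from -0.17 to 0.31, polo from -0.059 to 0.050, Incenp from -0.44 to 0.053 and pim from -0.14 to 0.36, and for NUN against cyto Mcm6 from -0.22 to 0.085. With 2 libraries a group, leaving out 1 assumes that the other varies like the rest. The lower counts in cyto limit its members most, with BubR1 at 62 to 191 counts and dap at 1 to 32 per library.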
